A study of Mus musculus with 16 samples.

Results

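A set of 10 genes of the G1 phase of the cell cycle is described here: the D-type cyclins Ccnd1, Ccnd2 and Ccnd3, the E-type cyclins Ccne1 and Ccne2, the kinases Cdk4 and Cdk6, and the kinase inhibitors Cdkn1a, Cdkn1b and Cdkn2c. They were matched by symbol, and all 10 were found among the 27179 rows of the count table and passed the filter on low counts, which left 14288 genes for testing. RNA of mouse embryonic stem (ES) cells was sequenced in 16 libraries, 2 for each of 8 groups. The groups were cells kept in 2i/LIF or in serum/LIF+2i and collected at 0, 12, 24 or 40 h after the start of exit from naive pluripotency, the 2 arms of the study.

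Both maintenance media held leukaemia inhibitory factor (LIF) together with 3 μM CHIR99021, an inhibitor of GSK3, and 1 μM PD0325901, an inhibitor of MEK, a pair called 2i. The 2i/LIF medium was serum-free (DMEM/F-12 and Neurobasal with N-2 and B-27 supplements), and serum/LIF+2i was knockout DMEM with 10% fetal bovine serum. Cells had been adapted to either medium from serum/LIF culture. For exit, 2i/LIF cells were changed to their own base medium lacking 2i and LIF, and serum/LIF+2i cells to a serum-free mix of DMEM and Neurobasal with N-2, B-27 and 2 mM glutamine, so the exit media differed as well as the maintenance media. The labels name no cell line and no genotype, and nothing in them says whether the 2 replicates of a group were separate cultures, so p-values measure only the spread between these libraries, which may be technical.

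D-type cyclins activate CDK4 and CDK6, which phosphorylate the retinoblastoma protein and its relatives and so free E2F factors to transcribe genes of DNA replication. E-type cyclins activate CDK2, which completes that phosphorylation and starts S phase. Inhibitors of the CIP/KIP family, among them the products of Cdkn1a and Cdkn1b, bind cyclin-CDK2 complexes, and INK4 inhibitors such as the product of Cdkn2c bind CDK4 and CDK6. Mouse ES cells are known for a short G1 phase, and ERK signalling, which 2i blocks, is a known inducer of Ccnd1 in many cell types.

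Total counts were between 5931381 and 11142744 per library, and 3 counts, taken as the floor of detection, correspond to 0.259 to 0.517 CPM (counts divided by the scaled library total and set to a common size, the usual CPM). The replicate pairs had a Pearson's r of 0.991 to 0.995 over all tested genes. Of 8 ES cell markers, all were detected in every library, with a summed level of 3013 to 5450 CPM, and the 8 fibroblast markers summed to 4.41 to 23.6 CPM, with Postn at 0 counts throughout. The ES cell sum does not show single markers: over the libraries Nanog ranged from 14.9 to 802 CPM, Esrrb from 15.4 to 919 and Pou5f1 from 635 to 953. Ribosomal RNA genes took 0.429% to 1.72% of counts.

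Within 12 h of exit, the inhibitor gene Cdkn1a fell by 1.87 and 2.47 on the log2 scale (2i/LIF and serum/LIF+2i), the cyclins Ccnd2, Ccnd3 and Ccne1 rose in both media, and Ccne2 did not pass the test. By 40 h Ccnd3 had dropped below its starting level and Ccnd1 was lower, while Ccne1 and Ccnd2 were still above 0 h. Throughout, called means an adjusted p below 0.05 by edgeR's quasi-likelihood test over all 14288 genes. At 12 h, 6 of the 10 genes were called in the 2i/LIF arm (4 higher, 2 lower), where 44.7% of all tested genes were called (21% higher and 23.7% lower). In the serum/LIF+2i arm 6 were also called (4 higher, 2 lower) against 51.2% of all genes (25.3% higher, 25.9% lower). At 24 h the count was 6 in the 2i/LIF arm (4 higher, 2 lower; 58.8% of all genes, 29.2% higher and 29.6% lower). It was 7 in the serum/LIF+2i arm (3 higher, 4 lower; 64.4% of all genes, 32.4% higher and 32% lower). At 40 h it was 7 in the 2i/LIF arm (3 higher, 4 lower; 68.8% of all genes, 34.1% higher and 34.7% lower) and 9 in the serum/LIF+2i arm (3 higher, 6 lower; 70.5% of all genes, 35.3% in each direction). So many genes were called overall that being called says little about any one of the 10, and their sizes and times of change are given below. RNA came from whole cultures, so that fewer cells with a transcript and less of it per cell cannot be told apart in any value below.

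**Figure D1:**
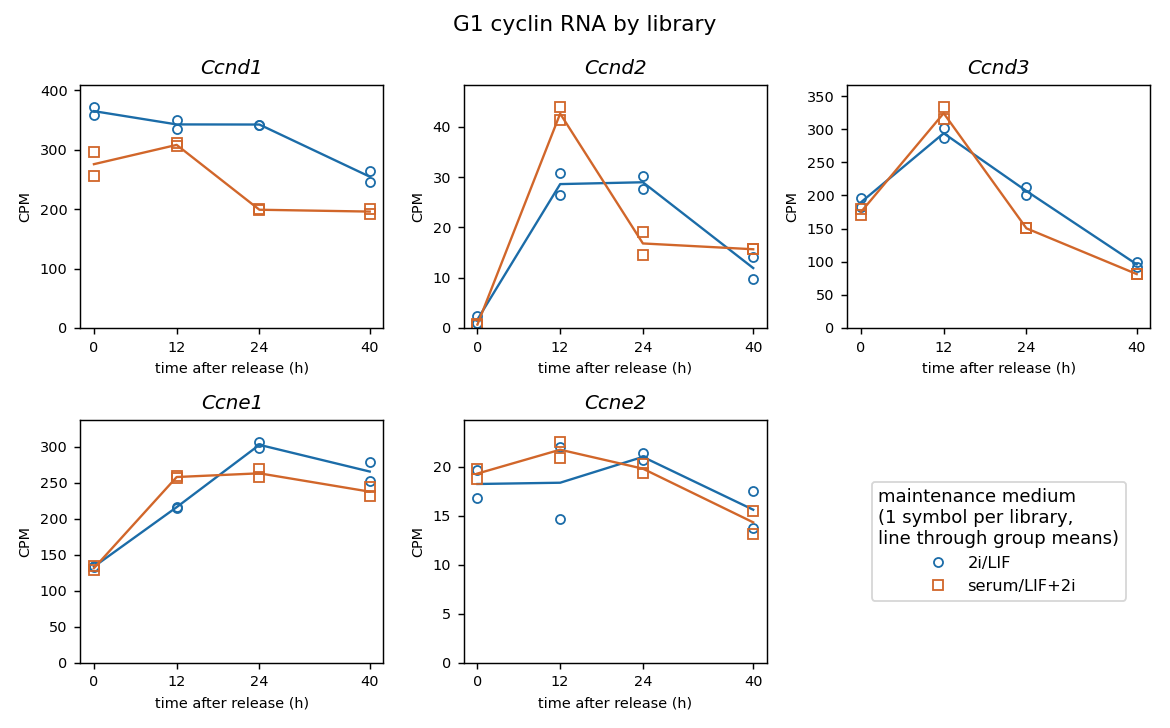
RNA of the 5 G1 cyclin genes in CPM (vertical axes, each from 0) against hours after the start of exit, with 1 symbol per library (circles 2i/LIF, squares serum/LIF+2i) and lines through the group means. Ccnd2 starts near 1 CPM and peaks at 12 h in the serum/LIF+2i arm at 42.6 CPM, Ccnd3 peaks at 12 h in both media, and Ccne1 stays above its 0 h level at each later time.

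Ccnd1 encodes cyclin D1 and lies at chr7:144929931-144939831 on the minus strand (RefSeq, GRCm38.p6, the assembly also called mm10 that the submitters' processing notes name). The 2i/LIF libraries held 358 and 372 CPM at 0 h, 336 and 350 at 12 h, 343 and 343 at 24 h, and 264 and 246 at 40 h. Those of serum/LIF+2i held 296 and 255 CPM at 0 h, 306 and 311 at 12 h, 200 and 198 at 24 h, and 191 and 200 at 40 h. The drop thus came by 24 h in the serum/LIF+2i arm and only by 40 h in the 2i/LIF arm, and the libraries of the lower and higher times did not overlap in either medium. At 40 h the log2 fold change from 0 h was -0.52 ± 0.04 (SE) in the 2i/LIF arm (adjusted p 4.6e-19) and -0.49 ± 0.04 in the serum/LIF+2i arm (adjusted p 9.7e-18). At 24 h it was -0.09 ± 0.04 in the 2i/LIF arm (adjusted p 0.059) and -0.47 ± 0.05 in the serum/LIF+2i arm (adjusted p 2.5e-16). The difference between these 24 h effects was -0.38 ± 0.06 (adjusted p 9.4e-07). The difference of 0.25 ± 0.06 at 12 h (adjusted p 0.0025) was not called with DESeq2 (adjusted p 0.05) or without replicate 2 of the serum/LIF+2i arm at 0 h (adjusted p 0.14). A rise of 0.16 ± 0.04 at 12 h in the serum/LIF+2i arm (adjusted p 0.0012) was 0.06 with adjusted p 0.36 without replicate 2 of the 0 h group. In the annotation Ccnd1 overlaps LTO1, which had 1670 counts over all libraries against 35205 for Ccnd1. Since no source used here states the strand setting of the counting, reads of overlapping genes could be shared. LTO1, looked at after the values were known, was lower in the serum/LIF+2i arm at 24 h (-0.38 ± 0.15, adjusted p 0.019) and 40 h (-0.56 ± 0.15, adjusted p 5e-04), as Ccnd1 was. In the 2i/LIF arm it had -0.06 ± 0.16 at 24 h and -0.32 ± 0.16 at 40 h (adjusted p 0.76 and 0.071).

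Ccnd2, the gene of cyclin D2 (chr6:127125162-127152188, minus strand), was close to the floor before exit, with 14 and 6 counts in the 2i/LIF libraries at 0 h and 4 and 5 counts in those of the serum/LIF+2i arm. These correspond to 2.41 and 0.911 CPM and to 0.588 and 0.734 CPM. At 12 h the libraries held 26.5 and 30.8 CPM in the 2i/LIF arm, and 43.9 and 41.3 CPM in the serum/LIF+2i arm. All later libraries lay above all 0 h libraries. Levels stayed at 30.3 and 27.7 CPM at 24 h in the 2i/LIF arm before falling to 14.2 and 9.65 at 40 h, whereas in the serum/LIF+2i arm they were already down to 19.0 and 14.6 at 24 h and were 15.6 and 15.7 at 40 h. The 12 h log2 fold change was 4.13 ± 0.23 in the 2i/LIF arm (adjusted p 2.2e-30) and 5.97 ± 0.24 in the serum/LIF+2i arm (adjusted p 2.1e-41), the largest rise of any of the 10 genes at that time in both media. At 40 h it was 2.88 ± 0.29 (adjusted p 5.2e-16) and 4.53 ± 0.30 (adjusted p 7.5e-26). The SEs of these exit effects come from the F test and are too small for so large a change from so few counts. The fall that followed the peak was -1.27 ± 0.14 from 24 to 40 h in the 2i/LIF arm (adjusted p 2.4e-13) and -1.35 ± 0.11 from 12 to 24 h in the serum/LIF+2i arm (adjusted p 2e-19). The rise was larger from the serum/LIF+2i arm by 1.84 ± 0.59 at 12 h (adjusted p 0.031) and by 1.65 ± 0.60 at 40 h (adjusted p 0.029), and these differences rest on the few counts at 0 h. Without replicate 1 of the 2i/LIF arm at 0 h they were 1.00 (adjusted p 0.58) and 0.82 (adjusted p 0.52), and leaving out either serum/LIF+2i library at 0 h, replicate 1 of the 2i/LIF arm at 12 h or replicate 2 at 40 h also ended a call. With DESeq2 the 12 h difference had an adjusted p of 0.061.

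The summed level of the 8 neuroectoderm markers moved with Ccnd2 between 0 and 12 h, from 63.9 and 66.2 CPM to 85.0 and 90.8 in the 2i/LIF arm and from 61.4 and 66.4 CPM to 99.3 and 104 in the serum/LIF+2i arm. At 24 h the sum had moved little from 12 h in the 2i/LIF arm (91.1 and 91.3 CPM), as had Ccnd2. In the serum/LIF+2i arm it had fallen from 12 h (to 81.9 and 83.6 CPM), again as had Ccnd2. The sum was at its highest at 40 h (147 to 165 CPM over both media), when Ccnd2 was past its peak. Hes5 and Neurog2 never exceeded 3 counts. The part of these markers in the Ccnd2 result was not tested.

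Ccnd3 (cyclin D3; chr17:47505051-47599689, plus strand) rose and then fell in both media. For 2i/LIF the libraries held 183 and 197 CPM at 0 h, 287 and 301 at 12 h, 213 and 201 at 24 h, and 99.9 and 92.0 at 40 h. For serum/LIF+2i the libraries held 170 and 180 CPM, 315 and 334, 151 and 150, and 81.8 and 80.7 at the same times. Every library at 12 h was above every other one, and every library at 40 h below. The 12 h rise was 0.63 ± 0.05 in the 2i/LIF arm (adjusted p 4.8e-24) and 0.89 ± 0.05 in the serum/LIF+2i arm (adjusted p 1e-36), and the 40 h effect was -0.98 ± 0.05 (adjusted p 8.5e-35) and -1.11 ± 0.05 (adjusted p 1.5e-40). The passage through the starting level came earlier from the serum/LIF+2i arm, where the 24 h value was -0.22 ± 0.05 against 0.12 ± 0.05 in the 2i/LIF arm (difference -0.34 ± 0.07, adjusted p 4.7e-05). The small 24 h rise in the 2i/LIF arm (adjusted p 0.024) had an adjusted p of 0.10 with DESeq2 and of 0.21 and 0.24 without replicate 1 of the 0 h or of the 24 h group. Ccnd3 overlaps Bysl in the annotation, which had 15574 counts against 23488. Bysl was looked at for this overlap after the values were known. It was higher at 12 h in both media (0.28 ± 0.06 and 0.35 ± 0.06), the same direction as Ccnd3. At 40 h it was also higher in both media (0.33 ± 0.06 and 0.32 ± 0.05), the opposite direction to Ccnd3. The part of shared reads in the Ccnd3 values was not tested.

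To compare levels between genes, counts were also divided by the gene length given in the table (RPKM, the per-length form of CPM). Summed over the D-type cyclins, RNA was at 180 ± 6.74 RPKM (SD, n = 2) at 0 h in the 2i/LIF arm, 225 ± 7.60 at 12 h, 187 ± 4.14 at 24 h and 112 ± 6.46 at 40 h. From the serum/LIF+2i arm the sums were 150 ± 4.41, 232 ± 6.51, 122 ± 1.124 and 90.3 ± 1.35 RPKM. The sum therefore rose at 12 h and was lowest at 40 h in both media, with no overlap between libraries of 0, 12 and 40 h within a medium. Ccnd1 made up 53.3% of it at 0 h in the 2i/LIF arm, 40.1% at 12 h, 48.4% at 24 h and 60.1% at 40 h, and 48.3%, 35.0%, 43.0% and 57.2% in the serum/LIF+2i arm, so that Ccnd3 led at 12 h and Ccnd1 at 40 h. Ccnd2, despite having the largest fold change, never made up more than 3.19% of a group's mean. The sums and shares were not tested and are given as a description.

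**Figure D2:**
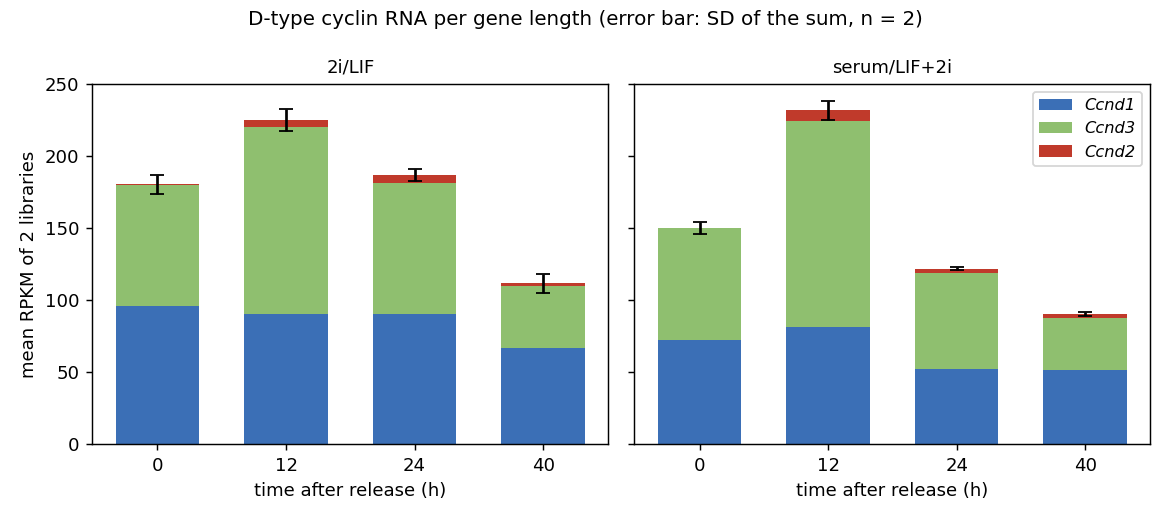
Mean RPKM of Ccnd1, Ccnd3 and Ccnd2, stacked, at each hour after the start of exit (left 2i/LIF, right serum/LIF+2i, bars from 0, error bars the SD of the sum over 2 libraries). The stack is highest at 12 h (225 and 232 RPKM) and lowest at 40 h (112 and 90.3 RPKM), and the Ccnd2 layer is thin throughout.

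Cdk4, the kinase partner of D-type cyclins (chr10:127063535-127067288, plus strand), had the highest level per length of the 10 genes. Its promoter is shown because it stands apart from most others in sequence: 4 copies of CACGTG, the E-box bound by MYC and related factors (a palindrome, so the same on both strands), lie in the 192 bases before the start. The stretch chr10:127063343-127063534 (GRCm38.p6, plus strand, from RefSeq) reads as follows, with the E-boxes in capitals.
Cdk4: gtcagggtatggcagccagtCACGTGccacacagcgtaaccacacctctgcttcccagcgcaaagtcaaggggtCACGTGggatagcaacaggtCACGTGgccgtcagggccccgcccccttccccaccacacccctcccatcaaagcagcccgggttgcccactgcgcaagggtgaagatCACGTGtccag
Of 32851 RefSeq windows from 250 bases before to 50 after a start, 7.15% held at least 1 E-box and 8 windows (0.0244%) held at least 4. This motif was searched after the values were known. Windows were found for 7 of the 10 genes, and the window of Cdk6 and 1 of those of Cdkn2c held 1 copy each. None of the 10 windows of these genes held an E2F site (TTTCCCGC, TTTCGCGC, TTTGCCGC or TTTGGCGC on either strand, present in 2.26% of all windows), which says only that these letters are not in these windows.

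Cdk4 RNA moved little. Its libraries held 728 and 740 CPM at 0 h in the 2i/LIF arm, 749 and 746 at 12 h, 808 and 819 at 24 h, and 822 and 801 at 40 h. The serum/LIF+2i libraries held 654 and 662, 690 and 698, 745 and 736, and 732 and 752 CPM. Within each medium the libraries of 24 and 40 h lay above those of 0 h. At 12 h the effect was 0.03 ± 0.03 in the 2i/LIF arm (adjusted p 0.57) and 0.08 ± 0.03 in the serum/LIF+2i arm (adjusted p 0.056), and the latter was called by DESeq2 (adjusted p 0.04), with its size factors in edgeR (0.031), without a filter (0.028) and at a mean of at least 5 CPM (0.039). The effect at 24 h was 0.15 ± 0.03 (adjusted p 0.00012) and 0.17 ± 0.03 (adjusted p 8.1e-06) and at 40 h 0.14 ± 0.03 (adjusted p 0.00013) and 0.17 ± 0.03 (adjusted p 4.4e-06), in the 2i/LIF arm and serum/LIF+2i. It overlaps Tspan31, which had 10490 counts against 94659 for Cdk4 and, looked at after the values were known, was lower at 40 h by -0.48 ± 0.07 in the 2i/LIF arm and -0.16 ± 0.06 in the serum/LIF+2i arm.

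Cdk6, the second kinase of D-type cyclins (chr5:3341004-3531008, plus strand), was far lower, at 1.15% to 2.68% of the summed RPKM of both kinases in the group means. Libraries of 2i/LIF held 33.6 and 29.6 CPM at 0 h, 38.9 and 36.6 at 12 h, 24.4 and 32.8 at 24 h, and 30.4 and 26.9 at 40 h. Those of serum/LIF+2i held 29.2 and 26.9, 30.7 and 33.7, 19.6 and 20.2, and 15.6 and 16.1 CPM. The 24 and 40 h libraries from the serum/LIF+2i arm were the lowest of all 16, while those from 2i/LIF overlapped with 0 h. From the serum/LIF+2i arm Cdk6 was lower by -0.50 ± 0.12 at 24 h (adjusted p 1e-04) and by -0.83 ± 0.12 at 40 h (adjusted p 6.9e-10), and at 40 h the value in the 2i/LIF arm was -0.13 ± 0.11 (adjusted p 0.29). The difference of the 40 h effects was -0.69 ± 0.16 (adjusted p 0.00041). A 12 h rise of 0.26 ± 0.11 in the 2i/LIF arm (adjusted p 0.038) was not called with DESeq2 (adjusted p 0.16), nor without replicate 2 of the 0 h group or either replicate of the 12 h group (adjusted p 0.053 to 0.29).

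**Figure D3:**
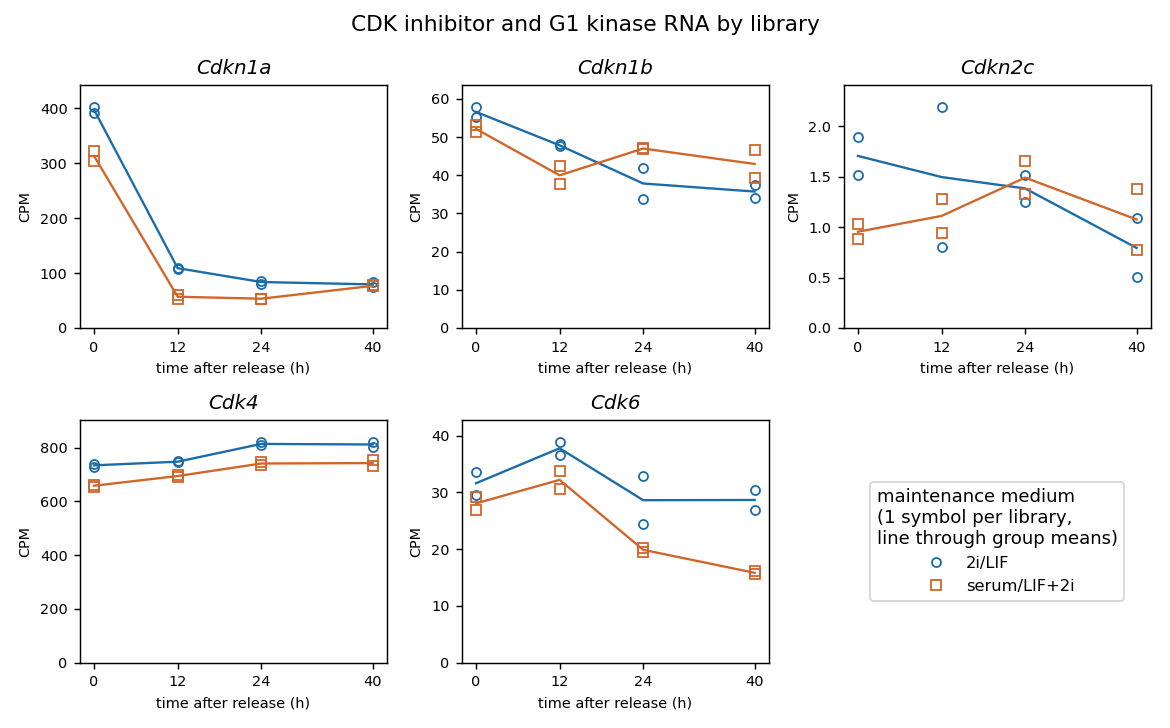
RNA of the 3 inhibitor genes and of both kinase genes in CPM (vertical axes, each from 0) against hours after the start of exit, with 1 symbol per library (circles 2i/LIF, squares serum/LIF+2i) and lines through the group means. Cdkn1a drops from 397 and 313 CPM at 0 h to 109 and 56.7 CPM at 12 h, Cdk6 separates by medium at 24 and 40 h, and Cdk4 stays between 654 and 822 CPM.

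Cdkn1a encodes p21, an inhibitor of cyclin-CDK2 complexes and a known p53 target (chr17:29090979-29100722, plus strand). Its upstream promoter is shown because a list of p53 target genes is described below and the window holds a p53 site: chr17:29090908-29090967 (GRCm38.p6, plus strand, from RefSeq), with the site in capitals.
Cdkn1a: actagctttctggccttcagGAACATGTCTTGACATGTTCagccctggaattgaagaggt
The site begins 51 bases before the upstream annotated start. The window of the other annotated start of Cdkn1a, chr17:29093519-29093818, held no such site. The search, chosen after the values were known, was for the p53 consensus of 20 bases without a spacer on both strands, with at most 1 mismatch, and 29 of the 32851 windows (0.0883%) held it. A match in sequence is a description and not evidence of binding.

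The 2i/LIF libraries held 402 and 392 CPM of Cdkn1a at 0 h, 110 and 108 at 12 h, 80.8 and 86.3 at 24 h, and 84.2 and 74.3 at 40 h. The serum/LIF+2i libraries held 303 and 323, 60.7 and 52.8, 52.9 and 53.5, and 77.5 and 75.7 CPM. All 0 h libraries lay above 300 CPM and all later ones at or below 110. The log2 fold change at 12 h was -1.87 ± 0.05 in the 2i/LIF arm (adjusted p 2.7e-63) and -2.47 ± 0.06 in the serum/LIF+2i arm (adjusted p 1.5e-71), and at 40 h -2.32 ± 0.05 (adjusted p 5.5e-72) and -2.03 ± 0.05 (adjusted p 1.1e-67). The deeper early fall from the serum/LIF+2i arm was followed by a partial return, a rise of 0.53 ± 0.06 from 24 to 40 h (adjusted p 2.3e-12), where 2i/LIF had -0.07 ± 0.07 (adjusted p 0.38). The difference of the exit effects accordingly changed sign, from -0.61 ± 0.08 at 12 h (adjusted p 8.6e-10) through -0.31 ± 0.08 at 24 h (adjusted p 0.0022) to 0.29 ± 0.08 at 40 h (adjusted p 0.0015). Without replicate 2 of the 2i/LIF arm at 24 h or at 40 h the 24 h and 40 h values were -0.25 (adjusted p 0.052) and 0.20 (adjusted p 0.068).

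The summed levels of primitive endoderm, trophoblast and mesendoderm markers were also highest at 0 h, but single markers did not all follow the sums. Dab2 and Gata4 of the endoderm list and Hand1 of the trophoblast list were highest at 40 h in the serum/LIF+2i arm. The 8 primitive endoderm markers summed to 161 to 177 CPM at 0 h in the 2i/LIF arm and 162 to 180 in the serum/LIF+2i arm, against 10.2 to 31.3 CPM in all later groups, and Lama1 alone reached 173 CPM while Gata6, Sox17, Sox7 and Foxa2 reached no more than 1.22 CPM and were at 0 counts in some libraries. The 8 trophoblast markers summed to 96.9 to 97.4 and 90.5 to 94.8 CPM at 0 h against 15.4 to 35.9 later. Tfap2c alone reached 64.6 CPM, and Elf5 had no more than 2 counts. The 8 mesendoderm markers summed to 33.1 to 41.2 and 22.2 to 29.8 CPM at 0 h against 3.63 to 14.7 later, and T alone reached 30.0 CPM. The part of these markers in the fall of Cdkn1a was not tested.

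Cdkn1b (p27, the second CIP/KIP inhibitor of the 10; chr6:134920401-134925525, plus strand) fell by less. In the 2i/LIF arm it held 55.3 and 57.9 CPM at 0 h, 47.6 and 48.1 at 12 h, 33.9 and 41.8 at 24 h, and 33.9 and 37.5 at 40 h. For serum/LIF+2i the libraries held 53.04 and 51.3, 37.6 and 42.4, 47.0 and 47.0, and 46.7 and 39.2 CPM. All later libraries lay below those of 0 h in the same medium. The 12 h value in the 2i/LIF arm, -0.24 ± 0.09 (adjusted p 0.017), was not called with DESeq2 (adjusted p 0.11) or without any 1 of its 4 libraries (adjusted p 0.058 to 0.18). In the 2i/LIF arm the fall was -0.59 ± 0.09 at 24 h (adjusted p 3e-08) and -0.67 ± 0.09 at 40 h (adjusted p 2.6e-10). In the serum/LIF+2i arm it was -0.38 ± 0.09 at 12 h (adjusted p 0.00017), the 24 h value was -0.15 ± 0.08 (adjusted p 0.11), and the 40 h fall was -0.27 ± 0.08 (adjusted p 0.0024). The media differed by 0.44 ± 0.13 at 24 h (adjusted p 0.0058) and 0.39 ± 0.12 at 40 h (adjusted p 0.011), but DESeq2 called neither (adjusted p 0.064 and 0.093). Leaving out replicate 1 of the 2i/LIF arm at 24 h gave 0.30 (adjusted p 0.14) for the first, and leaving out replicate 2 of the 2i/LIF arm at 0 h, replicate 1 of the 2i/LIF arm at 40 h or replicate 1 of the serum/LIF+2i arm at 40 h gave 0.35, 0.31 and 0.25 (adjusted p 0.07, 0.099 and 0.2) for the second. The serum/LIF+2i fall at 40 h was -0.16 (adjusted p 0.14) without replicate 2 of that group.

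Cdkn2c, an INK4 inhibitor of CDK4 and CDK6 (p18; chr4:109660876-109666756, minus strand), was barely detected, with 4 to 16 counts per library or 0.501 to 2.19 CPM. The libraries of neighbouring groups in the order of means overlapped in every case. It was called in 0 of the 17 comparisons by edgeR's test, with 0 at an unadjusted p under 0.05 and 0 called by DESeq2, and at this depth a change would have to be large to show: the standard errors of its exit effects were between 0.49 and 0.56 on the log2 scale. At 40 h in the 2i/LIF arm its value was -1.10 ± 0.56 (adjusted p 0.071), and without replicate 2 of that group -1.71 (adjusted p 0.04).

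Together, the inhibitors Cdkn1a, Cdkn1b and Cdkn2c went from 221 ± 3.11 RPKM at 0 h in the 2i/LIF arm to 74.96 ± 1.19 at 12 h, 58.2 ± 4.43 at 24 h and 54.7 ± 2.01 at 40 h (SD, n = 2). From the serum/LIF+2i arm the sums were 177 ± 6.45, 45.6 ± 1.13, 47.1 ± 0.00351 and 56.6 ± 3.23 RPKM. Cdkn1a made up 88.7% and 87.3% of the sum at 0 h, and between 55.7% and 71.7% of it in the later groups.

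Ccne1, the gene of cyclin E1 (chr7:38097984-38107490, minus strand), rose in both media and stayed up. In the 2i/LIF arm it held 133 and 134 CPM at 0 h, 217 and 215 at 12 h, 298 and 307 at 24 h, and 279 and 252 at 40 h. The serum/LIF+2i libraries held 129 and 134, 260 and 256, 269 and 257, and 231 and 244 CPM. The 4 libraries at 0 h were the lowest, and the climb took until 24 h in the 2i/LIF arm but was complete by 12 h in the serum/LIF+2i arm. At 12 h the effects were 0.70 ± 0.05 (adjusted p 2.5e-25) and 0.97 ± 0.05 (adjusted p 7.5e-39), a difference of 0.28 ± 0.07 (adjusted p 0.0028). At 40 h they were 0.99 ± 0.05 (adjusted p 2e-39) and 0.86 ± 0.05 (adjusted p 5.7e-35), and their difference, -0.14 ± 0.07, had an adjusted p of 0.12. Between 12 and 24 h Ccne1 rose by 0.49 ± 0.04 in the 2i/LIF arm (adjusted p 3.3e-18), while the value in the serum/LIF+2i arm was 0.03 ± 0.04 (adjusted p 0.60). A difference of -0.18 ± 0.07 between the 24 h effects (adjusted p 0.048) was not called with DESeq2 (adjusted p 0.26), with DESeq2 size factors, with library size only, without a filter, or without any of 7 of the 8 libraries it uses (adjusted p 0.058 to 0.22).

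Ccne2 (cyclin E2; chr4:11190433-11204779, plus strand) was at 3.45% to 8.22% of the summed E-type cyclin RPKM in the group means and changed little, from 13.2 to 22.6 CPM over the 16 libraries. The one exit effect called was at 40 h in the serum/LIF+2i arm, from 18.8 and 19.8 CPM to 15.5 and 13.2 CPM, or -0.42 ± 0.14 (adjusted p 0.0042). It was not called without replicate 2 of that group (adjusted p 0.074), and DESeq2 gave an adjusted p of 0.05. Ccne2 overlaps Ints8, which had 13371 counts against 2347 for Ccne2 and, looked at after the values were known, was higher at 40 h by 0.47 ± 0.06 in the 2i/LIF arm and 0.16 ± 0.06 in the serum/LIF+2i arm. The E-type cyclins summed to 73.8 ± 0.441 RPKM (SD, n = 2) at 0 h in the 2i/LIF arm and 140.5 ± 10.4 at 40 h, and to 73.0 ± 2.07 and 126 ± 4.25 RPKM in the serum/LIF+2i arm. The sums of D-type cyclins were above those of E-type cyclins at 0 h in each medium and below them at 40 h, without overlap between libraries.

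**Figure D4:**
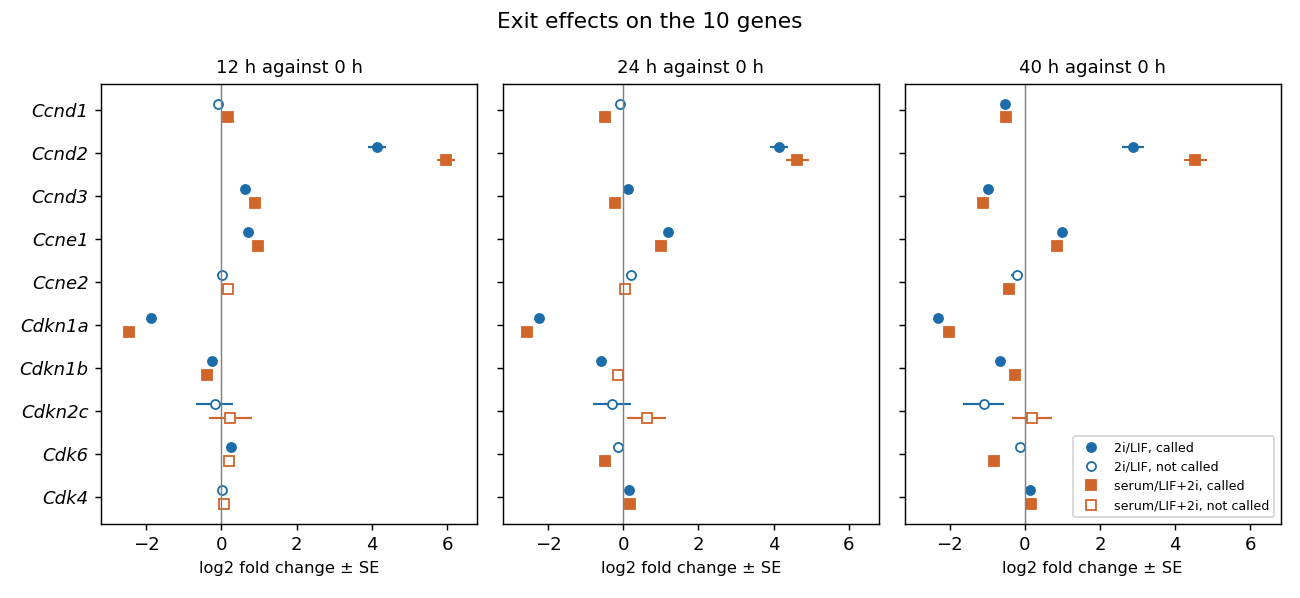
Log2 fold change from 0 h (horizontal axis) of the 10 genes at 12, 24 and 40 h, with SE from edgeR as bars (circles 2i/LIF, squares serum/LIF+2i, filled where the adjusted p is under 0.05). Ccnd2 lies farthest to the right at each time and Cdkn1a farthest to the left, and Ccnd3 crosses from 0.63 and 0.89 at 12 h to -0.98 and -1.11 at 40 h. The bars of Ccnd2 are too short, because this SE understates the error of large changes from few counts.

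Steps between neighbouring later times, which do not use the 0 h libraries, place the changes. From 12 to 24 h, 6 of the 10 genes were called in the 2i/LIF arm (2 higher, 4 lower; 35.1% of all genes, 17.4% higher and 17.7% lower). In the serum/LIF+2i arm 6 were called as well (2 higher, 4 lower; 48.4% of all genes, 24.2% in each direction), among them all D-type cyclins: Ccnd1 fell by 0.63 ± 0.04 (adjusted p 1.5e-23), Ccnd3 by 1.11 ± 0.04 (adjusted p 5.1e-46) and Ccnd2 as given above. In the 2i/LIF arm Ccnd3 alone of these fell, by 0.51 ± 0.05 (adjusted p 2.7e-18), and Ccnd1 and Ccnd2 had 0.00 ± 0.04 and 0.02 ± 0.12 (adjusted p 0.99 and 0.93). From 24 to 40 h, 5 were called in the 2i/LIF arm (0 higher, 5 lower; 46.7% of all genes, 22.2% higher and 24.5% lower), which were the D-type and E-type cyclins. The cyclins there were Ccnd1 at -0.43 ± 0.04 (adjusted p 2e-14), Ccnd3 at -1.11 ± 0.05 (adjusted p 1.8e-39), Ccne1 at -0.19 ± 0.04 (adjusted p 0.00012), Ccne2 at -0.42 ± 0.14 (adjusted p 0.0095) and Ccnd2. Without replicate 2 of the 2i/LIF arm at 40 h, Ccne1 (adjusted p 0.077) and Ccne2 (adjusted p 0.23) were no longer called and the count was 3, and DESeq2 did not call Ccne2 (adjusted p 0.083). In the serum/LIF+2i arm 5 were called (1 higher, 4 lower; 50.5% of all genes, 25.9% higher and 24.6% lower), with Cdkn1a higher and Ccnd3, Ccne1, Ccne2 and Cdk6 lower. Of these, Cdk6 was not called with DESeq2 (adjusted p 0.095) or without replicate 2 at 24 h or replicate 1 at 40 h (adjusted p 0.082 and 0.078), and Ccne1 not without replicate 1 at 40 h (adjusted p 0.056).

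The arms were compared at each time, as serum/LIF+2i against 2i/LIF. Only the comparison before exit is of the maintenance media alone, since the exit media differed at 12, 24 and 40 h. Before exit 3 of the 10 genes were called and all were lower in the serum/LIF+2i arm (33% of all genes called, 14.6% higher and 18.4% lower): Ccnd1 by -0.41 ± 0.04 (adjusted p 6.4e-13), Cdkn1a by -0.34 ± 0.04 (adjusted p 1.3e-10) and Cdk4 by -0.16 ± 0.04 (adjusted p 0.00014). Libraries of the media did not overlap for any of these. At 12 h 7 were called (3 higher, 4 lower; 30.3% of all genes, 14.8% higher and 15.5% lower), with Ccnd2, Ccnd3 and Ccne1 higher and Ccnd1, Cdkn1a, Cdkn1b and Cdk4 lower, Cdkn1a by -0.95 ± 0.06 (adjusted p 7.8e-26). DESeq2 called 4 of them, and 4 were called without replicate 2 of the 2i/LIF arm at 12 h. At 24 h 8 were called (1 higher, 7 lower; 31.1% of all genes, 14.1% higher and 17% lower). Lower were all D-type cyclins, Ccne1, Cdkn1a, Cdk6 and Cdk4, with Ccnd1 at -0.78 ± 0.04 (adjusted p 1.6e-28), Ccnd2 at -0.79 ± 0.13 (adjusted p 1.5e-07) and Ccnd3 at -0.46 ± 0.05 (adjusted p 9.9e-15), and Cdkn1b was higher, by 0.32 ± 0.09 (adjusted p 0.0034). The Cdkn1b value was 0.18 (adjusted p 0.25) when replicate 1 of the 24 h 2i/LIF group was left out, and that of Cdk6 was -0.29 (adjusted p 0.14) when its replicate 2 was. At 40 h 7 were called (2 higher, 5 lower; 27.3% of all genes, 13.9% higher and 13.4% lower), with Cdk6 at -0.86 ± 0.11 (adjusted p 5.9e-10) and Ccnd1 at -0.38 ± 0.04 (adjusted p 1.4e-11) among the lower ones, Ccnd2 at 0.38 ± 0.15 (adjusted p 0.041, with DESeq2 0.19) among the higher ones, and Cdkn1a at -0.05 ± 0.06 (adjusted p 0.58). Without replicate 1 of either 40 h group the count was 4. The serum/LIF+2i libraries of 24 and 40 h were also sequenced more deeply (9065257 to 11142744 counts) than those of the 2i/LIF arm at these times (6629047 to 7858428), and the part of depth was not tested.

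Differences between the exit effects of the media were called for 5 of the 10 genes at 12 h (4 higher, 1 lower), where 9.2% of all genes were called (4.8% higher and 4.4% lower). From the serum/LIF+2i arm Ccnd1, Ccnd2, Ccnd3 (0.26 ± 0.07, adjusted p 0.0034, with DESeq2 0.06) and Ccne1 rose more or fell less, and Cdkn1a fell further. DESeq2 called 2 of the 10, Ccne1 and Cdkn1a, and 3 were called without replicate 2 of the serum/LIF+2i arm at 0 h. At 24 h 5 were called (1 higher, 4 lower; 20.8% of all genes, 9.77% higher and 11% lower), with Ccnd1, Ccnd3, Ccne1 and Cdkn1a lower and Cdkn1b higher, of which DESeq2 called 3, and 3 were called without replicate 2 of the 2i/LIF arm at 24 h. At 40 h 4 were called (3 higher, 1 lower; 27.6% of all genes, 14.8% higher and 12.8% lower), namely Ccnd2, Cdkn1a and Cdkn1b higher and Cdk6 lower. These differences share libraries with the exit effects and the medium comparisons, so they are not independent of them.

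Other genes of the G1/S machinery changed in both directions. Of 27 listed genes, 26 were tested (Ccna1 was not), and at 40 h 13 were higher, 10 lower and 3 not called in the 2i/LIF arm, with a median log2 fold change of 0.187 against 0.005 over all genes. In the serum/LIF+2i arm 9 were higher, 11 lower and 6 not called, with a median of -0.105 against -0.003. Over all genes 34.1% were higher and 34.7% lower at 40 h in the 2i/LIF arm, and 35.3% in each direction in the serum/LIF+2i arm. Cdkn1c, the third CIP/KIP inhibitor (p57), went against the members of its family among the 10: it rose from 2.17 ± 0.149 CPM (SD, n = 2) at 0 h to 9.39 ± 2.23, 28.1 ± 1.69 and 27.8 ± 1.42 in the 2i/LIF arm, and from 1.40 ± 0.728 to 10.3 ± 1.31, 42.9 ± 1.04 and 81.8 ± 2.38 CPM in the serum/LIF+2i arm. Its 40 h effects were 3.66 ± 0.21 (adjusted p 1.3e-33) and 5.86 ± 0.17 (adjusted p 7.2e-62), which differed by 2.20 ± 0.45 (adjusted p 3.8e-05). As for Ccnd2, the SEs of the 2 exit effects are too small.

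Cdk2, the kinase that cyclin E activates, fell by 0.82 ± 0.05 in the 2i/LIF arm and 0.89 ± 0.05 in the serum/LIF+2i arm at 40 h (adjusted p 2e-29 and 9.3e-34). Among the pocket proteins held off E2F by cyclin-dependent phosphorylation, Rb1 was higher (0.63 ± 0.14 and 0.88 ± 0.13) and Rbl1 and Rbl2 lower (-0.90 ± 0.08 and -0.74 ± 0.08 for Rbl1, -0.74 ± 0.18 and -0.55 ± 0.16 for Rbl2). Of the E2F factors, E2f1 fell by 0.88 ± 0.07 and 0.87 ± 0.07, and the repressors E2f7 (1.12 ± 0.11 and 0.43 ± 0.09) and E2f8 (0.75 ± 0.09 and 0.66 ± 0.09) rose. Tfdp2, a dimerization partner of E2F, rose by 1.34 ± 0.06 and 1.23 ± 0.05, and Cks1b, a subunit of CDK2 complexes, by 0.89 ± 0.05 and 0.72 ± 0.05. All changes named in this paragraph were called in both media.

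Among the INK4 genes beside Cdkn2c, Cdkn2d fell by 0.76 ± 0.16 and 0.70 ± 0.16 (adjusted p 2.3e-05 and 3.4e-05) and Cdkn2b was not called (adjusted p 0.084 and 0.25). Cdkn2a, whose locus also encodes ARF, was lower in the serum/LIF+2i arm before exit by -0.83 ± 0.12 (adjusted p 1.1e-08). At 40 h it was lower in the 2i/LIF arm by -0.53 ± 0.12 (adjusted p 2.2e-05), with 0.10 ± 0.12 in the serum/LIF+2i arm (adjusted p 0.47).

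**Figure D5:**
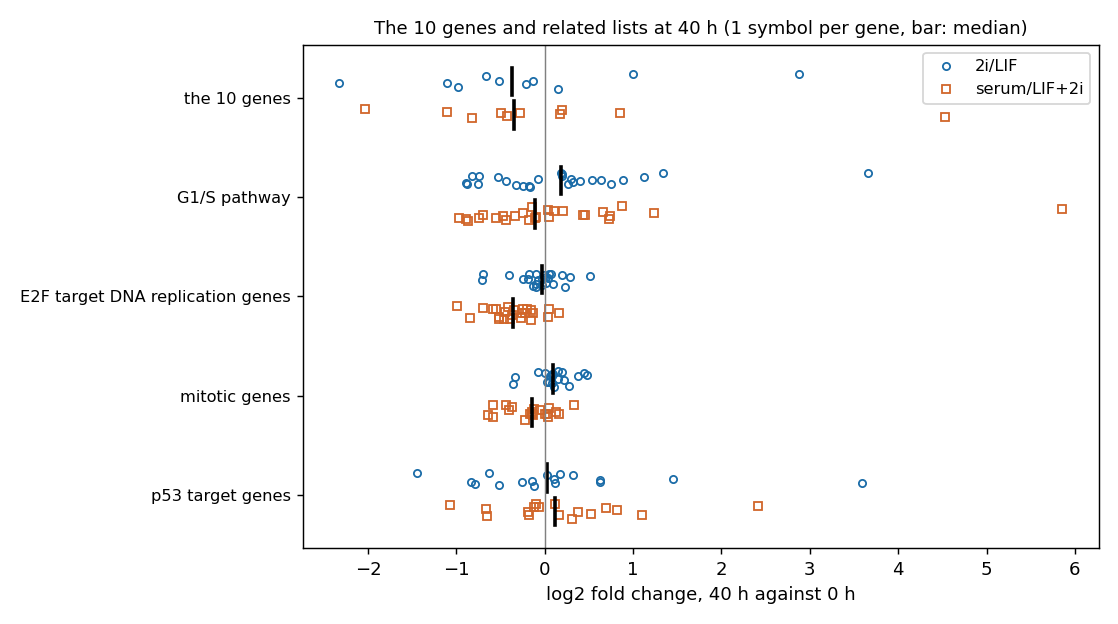
Log2 fold change at 40 h against 0 h (horizontal axis) for each of the 10 genes and each tested gene of 4 related lists, with 1 symbol per gene (circles 2i/LIF, squares serum/LIF+2i) and a bar at each median. The bars of the E2F target list lie at -0.03 and -0.36, and the farthest G1/S symbols to the right are Cdkn1c at 3.66 and 5.86.

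Downstream, 24 E2F target genes of DNA replication were followed at 40 h. In the 2i/LIF arm 5 were higher, 9 lower and 10 not called (median -0.03), and in the serum/LIF+2i arm 1 was higher, 21 lower and 2 not called (median -0.36). The share called over all genes was 68.8% and 70.5%, so that the 2i/LIF count is below it and the serum/LIF+2i count above. Uhrf1, a factor of maintenance DNA methylation, fell by 0.71 ± 0.04 and 0.85 ± 0.04 (adjusted p 2.1e-37 and 1.6e-44), and Orc1, a subunit of the origin recognition complex, by 0.41 ± 0.06 and 1.00 ± 0.05 (adjusted p 2.4e-10 and 9.3e-37). The difference of the 40 h effects was called for 19 of the 24, all lower from the serum/LIF+2i arm, where 12.8% of all genes were lower (median -0.30 against 0.02 over all genes), among them the replicative helicase subunit Mcm4 (-0.51 ± 0.05, adjusted p 3e-15) and the ribonucleotide reductase subunit Rrm2 (-0.55 ± 0.06, adjusted p 1e-14).

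Of 20 mitotic genes, 9 were higher, 2 lower and 9 not called at 40 h in the 2i/LIF arm (median 0.09), and 3 were higher, 11 lower and 6 not called in the serum/LIF+2i arm (median -0.14). Against 68.8% of all genes called, the 2i/LIF count is low, and against 70.5% the serum/LIF+2i count is near. The difference was called for 15, all lower from the serum/LIF+2i arm (12.8% of all genes lower, median -0.23), with Ccnb2, the gene of cyclin B2, at -0.68 ± 0.08 (adjusted p 5e-13) and Cdk1, the mitotic kinase, at -0.46 ± 0.06 (adjusted p 1.6e-10). Before exit 13 of the 20 were higher in the serum/LIF+2i arm and 0 lower, against 14.6% and 18.4% of all genes (median 0.15 against -0.01 over all genes).

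Of 18 p53 target genes other than Cdkn1a, 17 were tested (Fas was not), and they changed in both directions. At 40 h 5 were higher, 8 lower and 4 not called in the 2i/LIF arm (median 0.03), and 8 higher, 5 lower and 4 not called in the serum/LIF+2i arm (median 0.12). These counts are near the 68.8% and 70.5% called over all genes. Pmaip1, which encodes the pro-apoptotic protein NOXA, rose from 17.6 ± 0.200 to 212 ± 17.1 CPM in the 2i/LIF arm and from 38.5 ± 1.26 to 206 ± 6.33 CPM in the serum/LIF+2i arm (3.59 ± 0.08 and 2.42 ± 0.06, adjusted p 1.9e-73 and 3.1e-65). Ei24 fell by 0.84 ± 0.05 and 0.67 ± 0.05 (adjusted p 4.5e-30 and 1.5e-24), and Phlda3, an inhibitor of AKT signalling, fell by 1.44 ± 0.09 and 1.07 ± 0.08 (adjusted p 3.7e-32 and 3.1e-24). Sesn2, a stress-induced regulator of mTORC1, rose by 0.63 ± 0.05 and 1.11 ± 0.05 (adjusted p 3e-21 and 7.3e-43). The difference of the 40 h effects was called for 10 of the 17, 8 higher and 2 lower from the serum/LIF+2i arm (14.8% and 12.8% of all genes, median 0.17).

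Across the 16 libraries, which share 8 group means, the levels of the 10 genes fell into a few patterns on the log2 CPM scale. Ccne1 ran opposite to Cdkn1a (Pearson's r -0.93) and along with Ccnd2 (0.90), and Ccnd1 ran along with Cdk6 (0.86) and Ccnd3 (0.72). These values describe the libraries and mostly carry the differences between the times. Among 10768 tested genes averaging 5 CPM or more, the 2 most alike were Ctsc (r 0.99) and Hexa (0.99) for Cdkn1a, Sema5b (0.98) and Etv4 (0.98) for Ccnd2, and Map2k3 (0.99) and Zbtb24 (0.99) for Ccnd3. They were Pik3cd (0.98) and Enc1 (0.98) for Ccne1, Nol4l (0.97) and ND1 (0.97) for Ccnd1, Elmo1 (0.98) and Prps2 (0.97) for Cdk4, and Txn1 (0.93) and Gsta4 (0.92) for Cdk6. For Cdkn1b they were Kdelr2 (0.92) and Phyhd1 (0.91), for Ccne2 Dtymk (0.84) and Snf8 (0.83), and for Cdkn2c, among 10769 genes, Fkbp6 (0.80) and Nudt13 (0.73).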

How the data were processed

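Polyadenylated RNA of 16 mouse ES cell libraries (8 groups of 2) was extracted with TRIzol and made into stranded libraries, per the labels' protocols. The authors deposited 1 table of raw counts per gene with gene lengths. The submitters' processing notes name fastp, STAR, featureCounts and mm10. Their versions and the strand setting are not given in the sources used here. Where the protocol text gives 12 h only for 2i/LIF, sample titles were followed.

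From the deposited counts, edgeR 4.0.16 (R 4.3.3) was run on all 16 libraries with TMM scaling, filterByExpr (count of 10, total of 15), 8 group means and robust quasi-likelihood F tests for 17 comparisons. Benjamini-Hochberg adjustment covered 14288 genes, and the SE is the log2 fold change divided by the root of F. For a large change from few counts this SE is too small. The 12 h exit effects of Ccnd2 had SEs of 0.23 and 0.24, but their difference had 0.59. A group has 2 libraries and the fit 8 residual degrees of freedom per gene, to which the test adds information on spread shared over all genes. The p-values thus do not rest on the spread of a gene's own replicates alone. The common coefficient of variation between replicates, beyond counting error, was 3.19%. CPM and RPKM were computed from the counts, scaled totals and deposited lengths. Of 27179 rows, 1049 had no symbol and 5836 had no count. DESeq2 1.42.0 was an alternative, with other scalings, filters, fits and left-out libraries. The floor of 3 counts covers counting error only.

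On simulated counts for 14288 genes, edgeR recovered 20%, 66%, 78% and 92% of 50 genes each at 1.2-, 1.5-, 2- and 4-fold for 40 h exit in 2i/LIF. For the difference of exit effects at 40 h it recovered 4%, 56%, 78% and 80%. Changes were put only into the 2i/LIF group of 40 h, and all other genes had equal means in all groups. Of these, 7 and 11 were called. In the data 68.8% and 27.6% of genes were called, so these rates do not give the sensitivity of the reported tests.

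The 10 genes and all gene lists were chosen with earlier results of these data known. Named were all 10, G1/S genes, up to 4 genes with the smallest adjusted p per other list and comparison, and the 2 most correlated genes. Sequences came from RefSeq (GRCm38.p6), by symbol. Sums of marker lists gave, besides those reported beside results, 1.18 to 42.9 CPM for 2-cell-like markers (7 of 8 in the table).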

Additional observations from a re-analysis of the deposited data

Results flagged for a closer look

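Each difference below is the exit effect in serum/LIF+2i minus that in 2i/LIF on the log2 scale, with an adjusted p under 0.05 in edgeR's quasi-likelihood test, and was singled out because the effects in the media differed by that test. At 12 h the differences were 0.25 for Ccnd1 (adjusted p 0.0025), 1.84 for Ccnd2 (adjusted p 0.031), 0.26 for Ccnd3 (adjusted p 0.0034), 0.28 for Ccne1 (adjusted p 0.0028) and -0.61 for Cdkn1a (adjusted p 8.6e-10).

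At 24 h they were -0.38 for Ccnd1 (adjusted p 9.4e-07), -0.34 for Ccnd3 (adjusted p 4.7e-05), -0.18 for Ccne1 (adjusted p 0.048), -0.31 for Cdkn1a (adjusted p 0.0022) and 0.44 for Cdkn1b (adjusted p 0.0058). At 40 h they were 1.65 for Ccnd2 (adjusted p 0.029), 0.29 for Cdkn1a (adjusted p 0.0015), 0.39 for Cdkn1b (adjusted p 0.011) and -0.69 for Cdk6 (adjusted p 0.00041). DESeq2 did not call the differences of Ccnd1, Ccnd2 and Ccnd3 at 12 h, of Ccne1 and Cdkn1b at 24 h, or of Cdkn1b at 40 h. Those of Ccnd2 rest on few counts at 0 h, and several others depended on single libraries, as given above. The D-type cyclins Ccnd1 and Ccnd3 had a positive difference at 12 h and a negative one at 24 h, and Cdkn1a a negative one at 12 h and a positive one at 40 h. The exit media differed between the arms as well as the maintenance media, and their parts cannot be told apart.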

How the results depend on the processing

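Of 2143 log2 fold changes of the 10 genes recomputed under alternative settings, leaving aside a required change of at least 1, 1984 kept their direction and side of the threshold, 90 were no longer called, 14 became called and 55 changed sign. No called value changed sign, and no value that changed sign was called after the change, and the cause of the other changes was not tested. The settings were DESeq2, DESeq2 size factors, library size only, no filter on low counts, a mean of at least 5 CPM, a fit on only the groups compared, each library left out in turn, the replicate block and, added after seeing the data, no ribosomal RNA genes.

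An absolute log2 fold change of at least 1 was next required of called genes. At 12, 24 and 40 h of exit, 2, 3 and 2 of the 10 genes were then called for the 2i/LIF arm. For the serum/LIF+2i arm 2, 3 and 3 were called. Of all 14288 genes, 1755, 2965 and 4207 were called for the 2i/LIF arm, and 2128, 3418 and 4212 for the serum/LIF+2i arm. For the steps the 2i/LIF arm had 0 and 2 (1025 and 1861 of all genes) and the serum/LIF+2i arm 2 and 0 (1610 and 1834 of all genes). Between the media the counts of the 10 genes were 0 at each of the 4 times (813, 666, 620 and 482 of all genes). For the differences of exit effects they were 1, 0 and 1 (232, 529 and 803 of all genes). DESeq2 called 4 between the media at 12 h and 2 and 3 for the differences at 12 and 24 h. With 1 library left out, counts ranged from 3 to 5 for 40 h against 24 h in 2i/LIF, 4 to 6 between the media at 12 h and 4 to 6 at 40 h, and 3 to 5 for the differences at 12 h and 3 to 5 at 24 h.

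Among values that were not called, Ccnd1 for 24 h against 12 h in 2i/LIF was 0.007 with library size only. Ccnd1 for 40 h against 24 h in serum/LIF+2i was 0.024 with library size only and 0.012 at a mean of at least 5 CPM. Cdk4 for 40 h against 24 h in 2i/LIF was 0.015 with DESeq2, 0.015 with its size factors, 0.04 with library size only, 0.029 at a mean of at least 5 CPM and 0.011 without ribosomal RNA genes. In serum/LIF+2i it was -0.008 without a filter and -0.007 on only the groups compared. The other sign changes came with 1 library left out, and those log2 fold changes are given from lowest to highest. For 12 h against 0 h in 2i/LIF, they were -0.305 to 0.279 for Ccne2 and -1.066 to 0.367 for Cdkn2c. For 24 h against 0 h in 2i/LIF, they were -0.358 to 0.066 for Cdk6. For 12 h against 0 h in serum/LIF+2i, they were -0.002 to 0.428 for Cdkn2c. For 40 h against 0 h in serum/LIF+2i, they were -0.286 to 0.523 for Cdkn2c. For 24 h against 12 h in 2i/LIF, they were -0.03 to 0.029 for Ccnd1, -0.084 to 0.133 for Ccnd2, -0.069 to 0.516 for Ccne2 and -0.663 to 0.77 for Cdkn2c. For 40 h against 24 h in 2i/LIF, they were -0.156 to 0.024 for Cdkn1a, -0.216 to 0.085 for Cdkn1b, -0.18 to 0.244 for Cdk6 and -0.01 to 0.026 for Cdk4. For 24 h against 12 h in serum/LIF+2i, they were -0.182 to 0.016 for Cdkn1a. For 40 h against 24 h in serum/LIF+2i, they were -0.056 to 0.002 for Ccnd1, -0.288 to 0.091 for Ccnd2 and -0.016 to 0.014 for Cdk4. Between the media at 0 h, they were -0.052 to 0.007 for Ccne1 and -0.026 to 0.211 for Ccne2. Between the media at 12 h, they were -0.015 to 0.57 for Ccne2 and -0.947 to 0.487 for Cdkn2c. Between the media at 24 h, they were -0.043 to 0.273 for Cdkn2c. Between the media at 40 h, they were -0.292 to 0.061 for Ccne2, -0.143 to 0.036 for Cdkn1a and -0.023 to 1.094 for Cdkn2c. For the difference of exit effects at 12 h, they were -0.103 to 0.482 for Ccne2, -0.128 to 1.305 for Cdkn2c and -0.172 to 0.037 for Cdk6. For the difference of exit effects at 24 h, they were -0.354 to 1.062 for Ccnd2. For the difference of exit effects at 40 h, they were -0.078 to 0.126 for Ccnd1.

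Over all genes, DESeq2 called 3097, 2638, 2688 and 1982 between the media at 0, 12, 24 and 40 h against 4710, 4334, 4439 and 3897 with edgeR, and 536, 1720 and 2377 against 1315, 2966 and 3940 for the differences of exit effects. The 40 h count between the media was 2257 without replicate 1 of 2i/LIF at 40 h. Of genes called for the difference at 12 h, 52.2% were higher, but 41.4% without ribosomal RNA genes and 40.6% on only the groups compared.

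Replicate numbers were shared between groups by name only: deviations of same-numbered libraries correlated with r of -0.023 to 0.033 over 28 pairs of groups. With the replicate number as a block, the counts of the 10 genes called were as without it, 6, 6 and 7 for the 2i/LIF arm, then 6, 7 and 9 for the serum/LIF+2i arm at 12, 24 and 40 h, and no call changed. Depth limits Cdkn2c, with at most 16 counts in a library, and Ccnd2 at 0 h, with 4 to 14.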
